A study of Mus musculus with 12 samples.

Results

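The genes described here encode the enzymes and transporters of glycolysis and of the pentose phosphate pathway, with the kinases that restrain pyruvate oxidation in mitochondria and the regulator Hif1a. Members were the probe sets whose platform annotation gave exactly 1 gene symbol from a list of 36 such genes. The rule left 38 probe sets for 31 genes, of 33793 probe sets on the array and 23521 with exactly 1 symbol. Aldoa and Tkt lie on probe sets annotated with a second gene, and Gpi1, Eno1 and G6pdx were not matched, so these 5 genes are not analysed here. All 38 probe sets entered the tests, with no filter on low values.

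RNA of spleen CD8+ T cells from C57BL/6 mice was hybridised to 12 single-channel arrays in 4 groups of 3. The cells were enriched by removal of other cells with a CD8a+ T Cell Isolation Kit and incubated for 6 h. One group received anti-CD3, an antibody that binds a signalling part of the T cell receptor, together with IFN-4a, the interferon of this series. Another received anti-CD3 alone, another PBS with IFN-4a, and the last PBS alone as mock treatment. The labels give no age, antibody dose, interferon dose or number of animals, and do not say whether replicates came from separate mice, so the p-values cover the spread among these arrays only, and that spread may be technical.

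Glycolysis splits a glucose molecule into pyruvate in the cytosol, yielding ATP and NADH, and lactate dehydrogenase turns pyruvate into lactate while recycling NADH. The pentose phosphate pathway branches off at glucose 6-phosphate and yields NADPH and ribose 5-phosphate for nucleotides. Resting T cells rely mainly on mitochondrial respiration, and T cells activated through their receptor are known for raising aerobic glycolysis, with Myc and HIF-1 as known inducers of glycolytic genes. Several steps can be catalysed by alternative enzymes from different genes, here called isoforms.

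The deposited log values were read as log2, and each probe set had been centred on its median over the 12 arrays, so a value of 0 is that median and a value says nothing of the absolute level. A change is the difference of 2 group means on this scale, ± gives its standard error, and each compares 3 arrays with 3. Changes were called where limma's moderated test gave p under 0.05 after Benjamini-Hochberg adjustment over the 23521 probe sets. The decimal steps of the values showed no reading under 8 on the scale before centring for 18 of the 38 members, 47.4%, against 21.8% of all probe sets with 1 symbol. Values of 1 or more in size were passed without a check of their steps. All 12 values of Hk2 were of that size, so Hk2 is counted among the 18 without a check. Array medians lay between -0.0157 and 0.0165. Over all 33793 probe sets arrays within a group correlated at 0.608 or more and arrays of different groups at 0.527 or less. In bulk RNA, fewer cells of a type and less RNA per cell cannot be told apart. Cell type could not be checked by level on centred values. All 5 probe sets of CD8 T cell markers (Cd8a, Cd8b1, Cd3e, Cd3d and Cd3g) had no reading under 8, and none of the 22 probe sets for markers of other cells was without one. The mean of the 5 CD8 T cell markers ran from -0.13 to -0.080 with anti-CD3 and IFN-4a and from -0.16 to -0.093 with anti-CD3, against 0.088 to 0.10 with PBS and IFN-4a and 0.092 to 0.12 with PBS. The mean of 4 B cell markers was also lower with anti-CD3, at -0.097 to -0.036 with IFN-4a and -0.15 to -0.025 without, against 0.056 to 0.10 with PBS and IFN-4a and 0.043 to 0.14 with PBS. Without IFN-4a, 3 CD4 T cell markers (-0.13 to -0.074 against -0.036 to 0.0032) and 3 NK cell markers (-0.082 to -0.018 against 0.00036 to 0.11) were lower with anti-CD3 than with PBS, with no overlap. With IFN-4a the CD4 means were 0.0089 to 0.019 with anti-CD3 against 0.020 to 0.10 with PBS, so that they were also higher with IFN-4a than without it in both states, and the NK means overlapped. The single measured erythroid and platelet marker was higher with IFN-4a in stimulated cells (0.0038 to 0.012 against -0.096 to -0.0086). In the other marker lists and contrasts the ranges overlapped. The part of these in the results below was not tested.

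Stimulation through CD3 moved most of the pathway, and it did so unevenly between isoforms. Without IFN-4a, 24 of the 38 probe sets were called with anti-CD3 against PBS, 17 higher and 7 lower, which is 63.2% against 31.4% of all probe sets tested (13.9% higher and 17.5% lower). With IFN-4a present in both groups, 21 were called, 17 higher and 4 lower, 55.3% against 27.3% of all (12.8% higher and 14.5% lower). The arrays of both groups did not overlap for 24 members without IFN-4a, beside 40.8% of all probe sets, and for 26 with it, beside 37.9%. The 2 comparisons share no arrays: 16 probe sets were higher in both, 3 lower in both, none was called in opposite directions and 12 were called in neither. The median change of the members was 0.10 without and 0.14 with IFN-4a, and that of all probe sets was -0.035 and -0.034. A larger share of members than of all probe sets had no reading under 8 before centring (47.4% against 21.8%). Most members called in either comparison were of this kind. The shares of all probe sets here and below were not matched on it, and its part in these contrasts was not tested. Hk2 had the largest change of the members in both comparisons.

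**Figure D1:**
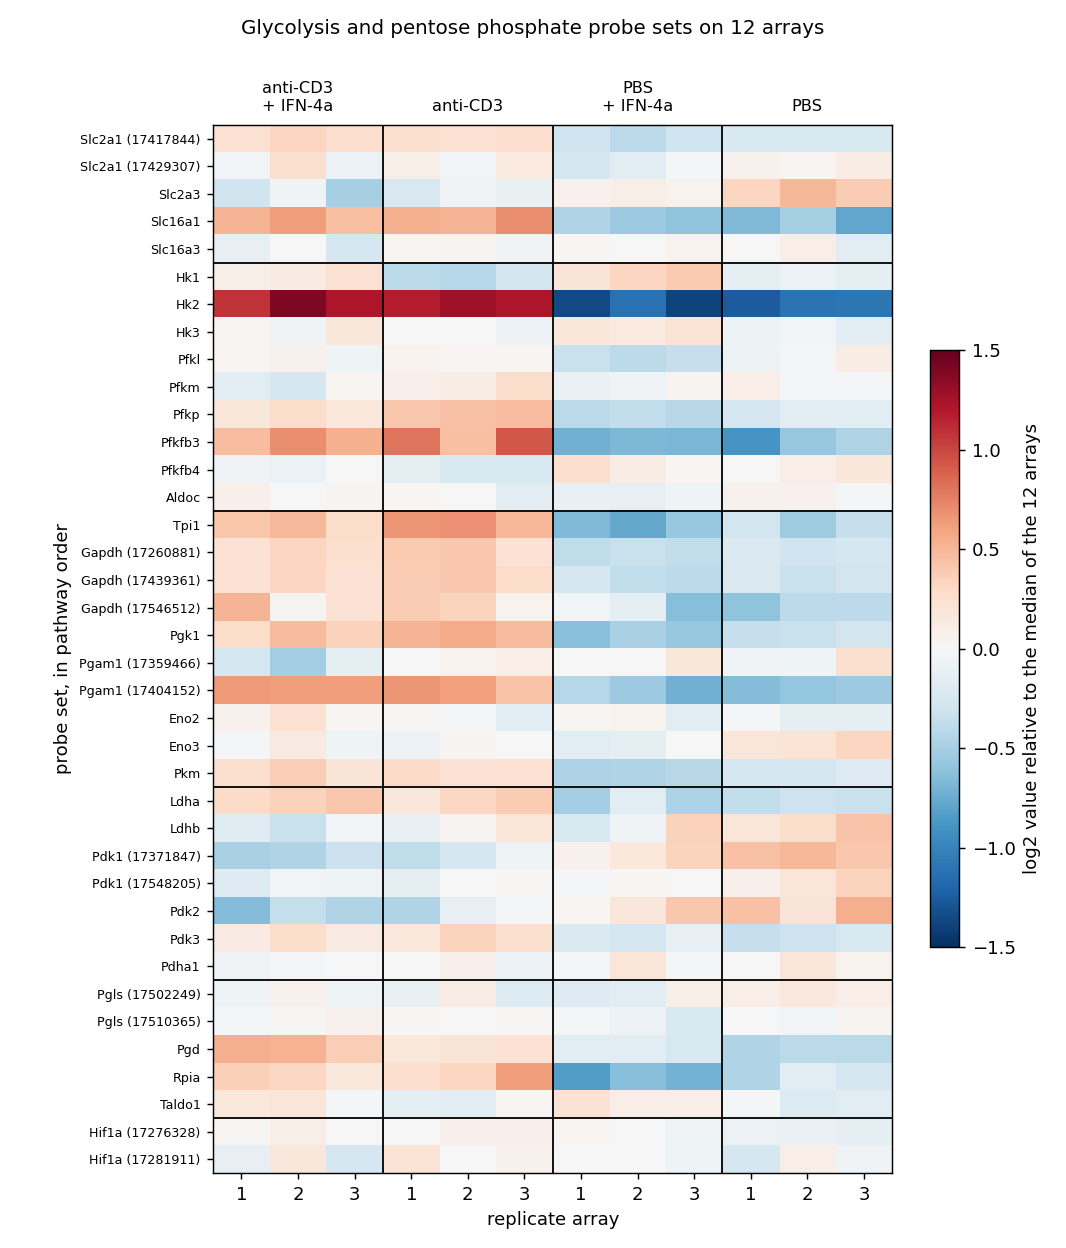
Each row is a probe set in pathway order and each column an array, with colour giving the log2 value relative to the median of the 12 arrays. Black lines separate the 4 groups and the steps of the pathway; Hk2 runs from 1.08 to 1.40 in the 6 anti-CD3 arrays and from -1.39 to -1.08 in the 6 PBS arrays.

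At the cell membrane, a probe set of 1 gene in each transporter pair rose. Slc2a1, the gene of the glucose transporter GLUT1, had 2 probe sets. Probe set 17417844 stood at 0.22, 0.32 and 0.25 with anti-CD3 and IFN-4a and 0.24, 0.23 and 0.25 with anti-CD3 alone, against -0.30, -0.40 and -0.30 with PBS and IFN-4a and -0.22, -0.24 and -0.24 with PBS alone. It was higher on every anti-CD3 array than on every PBS array and rose 1.39-fold without IFN-4a (0.48 ± 0.050, adjusted p = 4.88e-06) and 1.51-fold with it (0.60 ± 0.050, adjusted p = 6.18e-07). The other Slc2a1 probe set, 17429307, stood at -0.043, 0.24 and -0.093 with anti-CD3 and IFN-4a and 0.087, -0.038 and 0.14 with anti-CD3 alone, against -0.26, -0.17 and -0.033 with PBS and IFN-4a and 0.061, 0.033 and 0.11 with PBS alone. Its groups overlapped in both comparisons and its changes were -0.0033 and 0.19, neither called. Slc2a3, the gene of the high-affinity glucose transporter GLUT3, went the other way, with -0.30, -0.066 and -0.50 with anti-CD3 and IFN-4a and -0.24, -0.053 and -0.11 with anti-CD3 alone, against 0.064, 0.091 and 0.053 with PBS and IFN-4a and 0.32, 0.50 and 0.39 with PBS alone. Slc2a3 was lower on all anti-CD3 arrays and fell by 0.54 without IFN-4a (adjusted p = 4.06e-04) and by 0.36 with it (adjusted p = 0.00970). Among the proton-coupled carriers of lactate, Slc16a1, the gene of MCT1, stood at 0.51, 0.62 and 0.45 with anti-CD3 and IFN-4a and 0.53, 0.50 and 0.69 with anti-CD3 alone, against -0.45, -0.54 and -0.60 with PBS and IFN-4a and -0.66, -0.50 and -0.78 with PBS alone. The 6 anti-CD3 arrays were all above the 6 PBS arrays, and Slc16a1 rose 2.34-fold without IFN-4a (1.23 ± 0.081, adjusted p = 4.80e-08) and 2.08-fold with it (1.06 ± 0.081, adjusted p = 2.25e-07). Slc16a3, the gene of the lactate exporter MCT4, stood at -0.13, -0.0042 and -0.25 with anti-CD3 and IFN-4a and 0.025, 0.046 and -0.053 with anti-CD3 alone, against 0.030, -0.0012 and 0.049 with PBS and IFN-4a and 0.0012, 0.10 and -0.17 with PBS alone. Its changes of 0.029 without and -0.15 with IFN-4a were not called. The groups overlapped without IFN-4a, and with it the anti-CD3 arrays all lay below the PBS arrays, the nearest at -0.0042 and -0.0012.

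Hexokinase traps glucose in the cell as glucose 6-phosphate. Hk2, the gene of an inducible hexokinase that can bind mitochondria, stood at 1.08, 1.40 and 1.21 with anti-CD3 and IFN-4a and 1.18, 1.27 and 1.21 with anti-CD3 alone, against -1.35, -1.11 and -1.39 with PBS and IFN-4a and -1.25, -1.11 and -1.08 with PBS alone. Anti-CD3 raised it 5.16-fold without IFN-4a (2.37 ± 0.089, adjusted p = 2.08e-10) and 5.73-fold with it (2.52 ± 0.089, adjusted p = 1.05e-10). Hk1, the widely expressed hexokinase gene, stood at 0.093, 0.12 and 0.23 with anti-CD3 and IFN-4a and -0.41, -0.43 and -0.27 with anti-CD3 alone, against 0.19, 0.33 and 0.39 with PBS and IFN-4a and -0.13, -0.093 and -0.13 with PBS alone. It fell by 0.25 with anti-CD3 without IFN-4a (adjusted p = 0.00955), with no overlap of the arrays, and changed by -0.16 with IFN-4a present (adjusted p = 0.109, not called). Hk3, a hexokinase gene best known from myeloid cells, stood at 0.015, -0.050 and 0.17 with anti-CD3 and IFN-4a and 0.0048, -0.0048 and -0.086 with anti-CD3 alone, against 0.17, 0.15 and 0.20 with PBS and IFN-4a and -0.080, -0.041 and -0.16 with PBS alone. Its changes with anti-CD3 were 0.065 and -0.13, neither called.

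At the committed step, phosphofructokinase 1 is built from subunits of 3 genes. Pfkp, the gene of the platelet-type subunit, stood at 0.17, 0.27 and 0.15 with anti-CD3 and IFN-4a and 0.41, 0.44 and 0.46 with anti-CD3 alone, against -0.40, -0.37 and -0.41 with PBS and IFN-4a and -0.25, -0.15 and -0.16 with PBS alone. Its anti-CD3 arrays lay above the PBS arrays throughout, and it rose 1.54-fold without IFN-4a (0.62 ± 0.053, adjusted p = 5.60e-07) and 1.51-fold with it (0.59 ± 0.053, adjusted p = 1.08e-06). Pfkl, the liver-type gene, stood at 0.026, 0.061 and -0.064 with anti-CD3 and IFN-4a and 0.057, 0.026 and 0.030 with anti-CD3 alone, against -0.33, -0.39 and -0.35 with PBS and IFN-4a and -0.077, -0.026 and 0.11 with PBS alone. The low values were those of PBS with IFN-4a. Pfkl rose 1.29-fold with anti-CD3 in the presence of IFN-4a (0.37 ± 0.059, adjusted p = 2.48e-04), and without IFN-4a it changed by 0.036 (adjusted p = 0.726). Pfkm, the muscle-type gene, stood at -0.17, -0.26 and 0.028 with anti-CD3 and IFN-4a and 0.080, 0.11 and 0.26 with anti-CD3 alone, against -0.10, -0.054 and 0.042 with PBS and IFN-4a and 0.099, -0.028 and -0.031 with PBS alone, with anti-CD3 changes of 0.14 and -0.097 that were not called. Pfkfb3 encodes a bifunctional enzyme that makes fructose 2,6-bisphosphate, an activator of phosphofructokinase 1. It stood at 0.46, 0.70 and 0.53 with anti-CD3 and IFN-4a and 0.80, 0.45 and 0.93 with anti-CD3 alone, against -0.72, -0.67 and -0.69 with PBS and IFN-4a and -0.89, -0.57 and -0.45 with PBS alone, rising 2.57-fold without IFN-4a (1.36 ± 0.12, adjusted p = 1.13e-06) and 2.39-fold with it (1.26 ± 0.12, adjusted p = 2.74e-06). Its relative Pfkfb4 stood at -0.052, -0.088 and 0.0073 with anti-CD3 and IFN-4a and -0.13, -0.23 and -0.23 with anti-CD3 alone, against 0.25, 0.11 and 0.025 with PBS and IFN-4a and -0.0073, 0.096 and 0.17 with PBS alone. Pfkfb4 fell by 0.29 without IFN-4a (adjusted p = 0.00504) and changed by -0.17 with it (adjusted p = 0.0830, not called). Aldoc, the brain-type aldolase gene, lay between -0.17 and 0.07 on all arrays and was not called in either comparison (-0.077 and 0.14).

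From triose phosphate to pyruvate, 7 of 10 probe sets rose with anti-CD3 in each comparison and 1 fell, beside 13.9% higher and 17.5% lower of all probe sets without IFN-4a and 12.8% and 14.5% with it, and the median change was 0.61 in both. These 10 probe sets stand for 7 genes, and Gapdh alone gave 3 of those that rose, so the count repeats a gene. Tpi1, the triose phosphate isomerase gene, stood at 0.42, 0.48 and 0.28 with anti-CD3 and IFN-4a and 0.67, 0.68 and 0.50 with anti-CD3 alone, against -0.67, -0.76 and -0.57 with PBS and IFN-4a and -0.28, -0.53 and -0.34 with PBS alone. It rose 1.997-fold without IFN-4a (0.998 ± 0.083, adjusted p = 4.70e-07) and 2.08-fold with it (1.06 ± 0.083, adjusted p = 2.91e-07). The 3 probe sets of Gapdh, the dehydrogenase gene of this stretch, rose by 0.60, 0.63 and 0.72 without IFN-4a and by 0.62, 0.59 and 0.54 with it. Gapdh has many near-identical pseudogenes whose sequence its probes may share, and 17546512 lost its call with IFN-4a when array 1 of anti-CD3 with IFN-4a or array 3 of PBS with IFN-4a was left out (highest adjusted p = 0.0826). Pgk1, whose product makes the first ATP of the pathway, rose 1.78-fold without IFN-4a (adjusted p = 1.71e-07) and 1.90-fold with it (adjusted p = 6.36e-08). Its values were 0.28, 0.48 and 0.34 with anti-CD3 and IFN-4a, 0.51, 0.55 and 0.47 with anti-CD3, -0.63, -0.49 and -0.56 with PBS and IFN-4a and -0.35, -0.33 and -0.28 with PBS. Pkm, the pyruvate kinase gene whose 2 splice forms are not separated here, stood at 0.24, 0.37 and 0.20 with anti-CD3 and IFN-4a and 0.28, 0.21 and 0.22 with anti-CD3 alone, against -0.46, -0.45 and -0.41 with PBS and IFN-4a and -0.25, -0.26 and -0.20 with PBS alone. Pkm rose 1.39-fold without and 1.64-fold with IFN-4a (adjusted p = 1.27e-05 and 2.88e-07).

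The 2 probe sets annotated to Pgam1, the phosphoglycerate mutase gene, did not move together. Probe set 17404152 stood at 0.64, 0.63 and 0.62 with anti-CD3 and IFN-4a and 0.66, 0.61 and 0.43 with anti-CD3 alone, against -0.43, -0.55 and -0.72 with PBS and IFN-4a and -0.65, -0.58 and -0.55 with PBS alone. It rose 2.24-fold without IFN-4a (1.16 ± 0.078, adjusted p = 6.13e-08) and 2.29-fold with it (1.20 ± 0.078, adjusted p = 5.00e-08). Probe set 17359466 stood at -0.26, -0.52 and -0.14 with anti-CD3 and IFN-4a and 0.0026, 0.058 and 0.11 with anti-CD3 alone, against -0.0026, 0.0052 and 0.17 with PBS and IFN-4a and -0.058, -0.060 and 0.24 with PBS alone. It did not pass without IFN-4a (0.015) and fell by 0.36 with it (adjusted p = 0.0136), a call lost when array 2 of anti-CD3 with IFN-4a or array 3 of PBS with IFN-4a was left out (adjusted p up to 0.0669), while the mean of both probe sets rose by 0.42 (adjusted p = 1.89e-04). Pgam1 also has processed pseudogenes, and which transcripts either probe set reports was not tested. Of the enolase genes, Eno2, the neuronal form, stood at 0.064, 0.23 and 0.034 with anti-CD3 and IFN-4a and 0.017, -0.017 and -0.16 with anti-CD3 alone, against 0.018, 0.049 and -0.17 with PBS and IFN-4a and -0.027, -0.14 and -0.14 with PBS alone, with changes of 0.051 and 0.14 that were not called. Eno3, the muscle form, stood at -0.019, 0.13 and -0.066 with anti-CD3 and IFN-4a and -0.091, 0.036 and 0.011 with anti-CD3 alone, against -0.16, -0.14 and -0.011 with PBS and IFN-4a and 0.19, 0.21 and 0.33 with PBS alone. The 3 PBS arrays were the highest, and Eno3 fell by 0.26 with anti-CD3 without IFN-4a (adjusted p = 0.0111). This call ended under quantile normalization and without the first anti-CD3 or the third PBS array (highest adjusted p = 0.0539). With IFN-4a the change was 0.12, not called.

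At pyruvate the isoforms again separated. Ldha, the gene of the lactate dehydrogenase subunit that favours lactate formation, stood at 0.29, 0.35 and 0.41 with anti-CD3 and IFN-4a and 0.17, 0.31 and 0.38 with anti-CD3 alone, against -0.51, -0.17 and -0.47 with PBS and IFN-4a and -0.37, -0.31 and -0.33 with PBS alone. All anti-CD3 arrays lay above all PBS arrays, and Ldha rose 1.54-fold without IFN-4a (0.63 ± 0.084, adjusted p = 4.38e-05) and 1.66-fold with it (0.73 ± 0.084, adjusted p = 1.14e-05). Ldhb, the gene of the subunit that favours pyruvate formation, stood at -0.19, -0.34 and -0.039 with anti-CD3 and IFN-4a and -0.12, 0.039 and 0.18 with anti-CD3 alone, against -0.23, -0.055 and 0.34 with PBS and IFN-4a and 0.18, 0.26 and 0.43 with PBS alone. Its changes of -0.26 and -0.21 were not called. The pyruvate dehydrogenase kinases phosphorylate the E1 alpha subunit and switch the complex off. Pdk1 probe set 17371847 stood at -0.49, -0.45 and -0.32 with anti-CD3 and IFN-4a and -0.38, -0.25 and -0.062 with anti-CD3 alone, against 0.062, 0.16 and 0.33 with PBS and IFN-4a and 0.43, 0.50 and 0.40 with PBS alone. It fell 1.60-fold without IFN-4a (-0.68 ± 0.087, adjusted p = 3.13e-05) and 1.52-fold with it (-0.60 ± 0.087, adjusted p = 9.98e-05). The other Pdk1 probe set, 17548205, stood at -0.20, -0.041 and -0.062 with anti-CD3 and IFN-4a and -0.13, 0.0030 and 0.016 with anti-CD3 alone, against -0.015, 0.030 and -0.0030 with PBS and IFN-4a and 0.079, 0.19 and 0.34 with PBS alone. It fell by 0.24 without IFN-4a (adjusted p = 0.0207) and changed by -0.10 with it (not called). Its call ended under quantile normalization, with only the 2 groups in the fit, and without the first anti-CD3 or the third PBS array (highest adjusted p = 0.0977). Pdk2 stood at -0.65, -0.36 and -0.46 with anti-CD3 and IFN-4a and -0.45, -0.13 and -0.035 with anti-CD3 alone, against 0.035, 0.17 and 0.41 with PBS and IFN-4a and 0.44, 0.20 and 0.54 with PBS alone, and fell 1.52-fold without IFN-4a (-0.60 ± 0.13, adjusted p = 0.00203) and 1.61-fold with it (-0.69 ± 0.13, adjusted p = 7.35e-04). Pdk3 did the opposite, with 0.12, 0.27 and 0.13 with anti-CD3 and IFN-4a and 0.16, 0.34 and 0.24 with anti-CD3 alone, against -0.22, -0.25 and -0.12 with PBS and IFN-4a and -0.35, -0.31 and -0.24 with PBS alone. It rose 1.46-fold without IFN-4a (0.55 ± 0.065, adjusted p = 1.53e-05) and 1.29-fold with it (0.37 ± 0.065, adjusted p = 5.78e-04). Pdha1, which encodes the E1 alpha subunit itself, changed by -0.076 and -0.063, not called.

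In the pentose phosphate pathway, 2 of 5 probe sets rose with anti-CD3 in each comparison, beside 13.9% of all probe sets without IFN-4a and 12.8% with it. None of the 5 fell, beside 17.5% and 14.5% of all, and 5 probe sets are too few to read against those shares. Pgd, whose product yields NADPH and ribulose 5-phosphate, stood at 0.54, 0.52 and 0.37 with anti-CD3 and IFN-4a and 0.16, 0.20 and 0.22 with anti-CD3 alone, against -0.17, -0.16 and -0.24 with PBS and IFN-4a and -0.45, -0.39 and -0.40 with PBS alone. It rose 1.52-fold without IFN-4a (0.61 ± 0.057, adjusted p = 1.61e-06) and 1.59-fold with it (0.66 ± 0.057, adjusted p = 7.32e-07). Rpia, whose product makes ribose 5-phosphate, stood at 0.35, 0.31 and 0.16 with anti-CD3 and IFN-4a and 0.26, 0.32 and 0.63 with anti-CD3 alone, against -0.84, -0.64 and -0.71 with PBS and IFN-4a and -0.45, -0.16 and -0.26 with PBS alone. Rpia rose 1.62-fold without IFN-4a (0.69 ± 0.10, adjusted p = 9.70e-05) and 2.01-fold with it (1.004 ± 0.10, adjusted p = 3.54e-06). Both probe sets of Pgls, the lactonase gene, and Taldo1, the transaldolase gene, were not called in either comparison, and their changes lay between -0.19 and 0.13. Hif1a is the oxygen-regulated subunit gene of HIF-1. Its probe set 17276328 rose by 0.15 with anti-CD3 without IFN-4a (adjusted p = 0.0409) and changed by 0.043 with it. That call ended in 12 of 20 other settings, among them the fit of only the 2 groups, the mean of both Hif1a probe sets, and leaving out any of 9 single arrays, namely arrays 1 and 3 of anti-CD3 with IFN-4a, 2 and 3 of anti-CD3, 1 and 2 of PBS with IFN-4a, and each PBS array (highest adjusted p = 0.131). Probe set 17281911 of Hif1a changed by 0.16 and -0.047, not called.

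**Figure D2:**
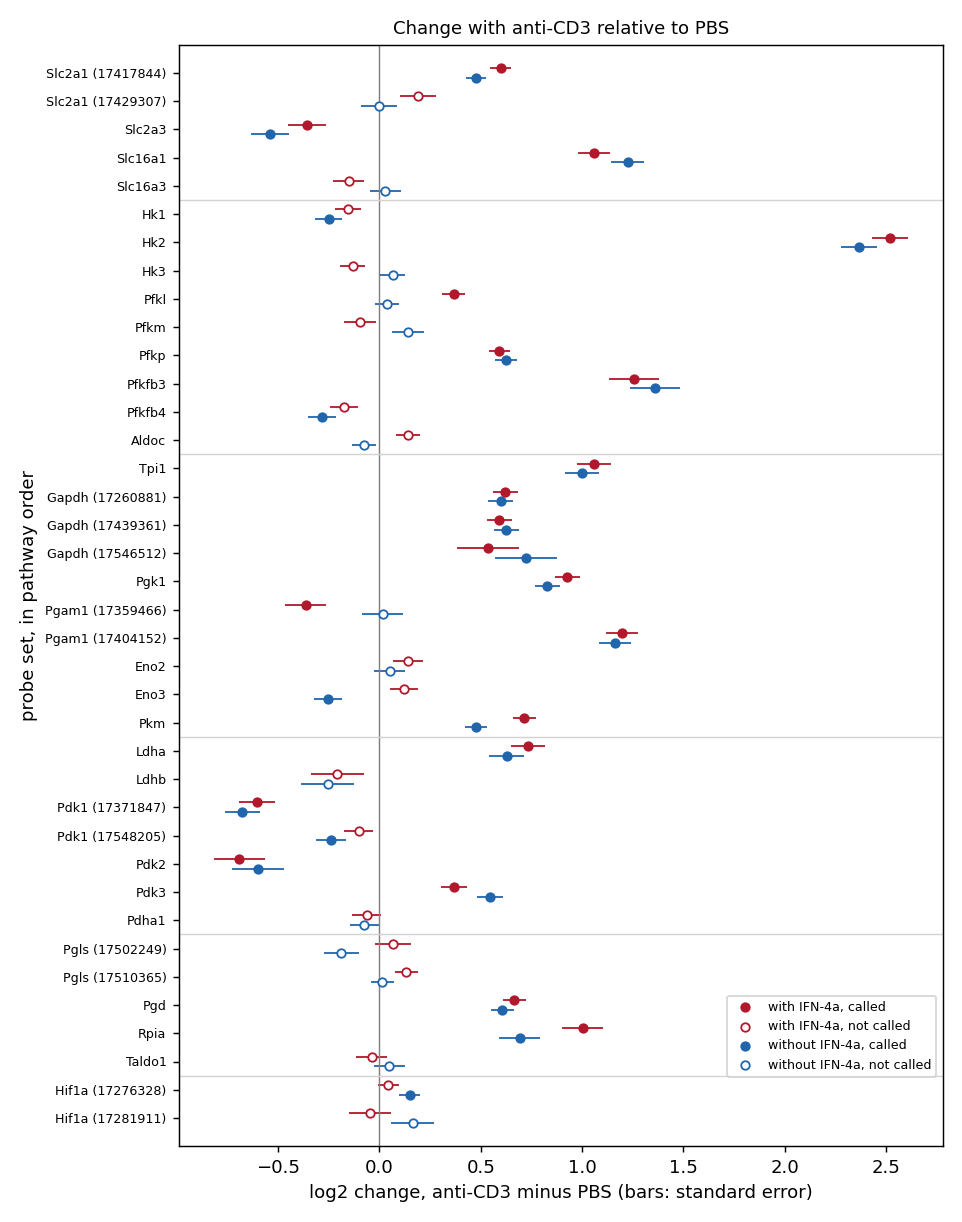
Points give the log2 change with anti-CD3 against PBS for each probe set, in cells with IFN-4a (red) and without (blue), with bars for the standard error. Filled points passed an adjusted p under 0.05; Hk2 stands apart at 2.52 and 2.37, and Slc2a3, Pdk1 (17371847) and Pdk2 lie left of 0 in both.

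The promoters of the 4 genes with the largest changes with anti-CD3 without IFN-4a, Hk2, Pfkfb3, Slc16a1 and Pgam1, are shown as those of the largest increases. Pgam1 stands here for probe set 17404152: its other probe set, 17359466, changed by 0.015 without IFN-4a and fell by 0.36 with it. Sequences are from RefSeq on GRCm38.p6 and cover 300 bases, 250 before to 50 after the annotated start, 5′ to 3′ on the strand of the gene. Capitals mark ACGTG, the core shared by HIF and E-box elements, on either strand, and a run of 6 capitals is CACGTG, the E-box bound by Myc with Max. The intervals are chr6:82774405-82774704 (minus strand) for Hk2, chr2:11502041-11502340 and chr2:11553880-11554179 (minus strand) for 2 starts of Pfkfb3, chr3:104638414-104638713 (plus strand) for Slc16a1 and chr19:41911621-41911920 (plus strand) for Pgam1.
Hk2: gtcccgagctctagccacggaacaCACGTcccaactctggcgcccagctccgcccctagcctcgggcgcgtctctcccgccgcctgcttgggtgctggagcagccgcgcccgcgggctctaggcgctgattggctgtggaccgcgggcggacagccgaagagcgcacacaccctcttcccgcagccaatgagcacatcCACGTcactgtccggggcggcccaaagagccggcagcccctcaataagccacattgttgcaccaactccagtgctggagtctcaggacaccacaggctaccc
Pfkfb3, 1 start: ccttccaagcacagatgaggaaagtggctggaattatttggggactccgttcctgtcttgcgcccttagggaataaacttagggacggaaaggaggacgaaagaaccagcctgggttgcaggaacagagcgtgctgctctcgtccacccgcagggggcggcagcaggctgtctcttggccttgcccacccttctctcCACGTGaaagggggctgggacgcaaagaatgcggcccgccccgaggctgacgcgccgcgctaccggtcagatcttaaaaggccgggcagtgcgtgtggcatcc
Pfkfb3, other start: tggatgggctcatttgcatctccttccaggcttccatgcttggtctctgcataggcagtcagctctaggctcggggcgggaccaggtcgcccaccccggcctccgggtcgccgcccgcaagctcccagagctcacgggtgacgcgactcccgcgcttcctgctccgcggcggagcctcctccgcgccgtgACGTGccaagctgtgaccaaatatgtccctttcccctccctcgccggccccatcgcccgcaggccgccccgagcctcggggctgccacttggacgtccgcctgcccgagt
Slc16a1: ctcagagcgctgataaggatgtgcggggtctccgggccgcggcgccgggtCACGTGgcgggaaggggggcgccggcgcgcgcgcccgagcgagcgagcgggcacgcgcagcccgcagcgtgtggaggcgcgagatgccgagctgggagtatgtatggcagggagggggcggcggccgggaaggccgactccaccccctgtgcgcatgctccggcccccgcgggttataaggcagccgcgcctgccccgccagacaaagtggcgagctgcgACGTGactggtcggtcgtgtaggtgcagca
Pgam1: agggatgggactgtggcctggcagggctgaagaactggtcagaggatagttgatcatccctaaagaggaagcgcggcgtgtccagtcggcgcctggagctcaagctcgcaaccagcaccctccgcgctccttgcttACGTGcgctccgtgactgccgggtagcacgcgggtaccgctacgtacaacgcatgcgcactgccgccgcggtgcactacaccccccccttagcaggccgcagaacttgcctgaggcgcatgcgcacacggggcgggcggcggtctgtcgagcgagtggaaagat
Hk2 and Slc16a1 held 2 such stretches each, and Pgam1 and each Pfkfb3 promoter 1. Promoters were found for 30 of the 31 genes. ACGTG was present in at least 1 promoter of 11 of the 15 genes with a probe set higher without IFN-4a (Pgam1 among them), of 2 of the 5 lower genes with a promoter and of 4 of the 10 genes not called. Among all 27025 genes with a promoter the share was 21.8%. CACGTG was found in 4 of the 15 higher genes (Hif1a, Ldha, Pfkfb3 and Slc16a1), 1 of 5 lower genes (Pdk2) and 1 of 10 not called (Pfkm), and in 8.09% of all genes. Hif1a is in both of these counts of higher genes only through probe set 17276328, whose call ended in 12 of 20 other settings. GCGTG was present in 10 of 15, 4 of 5 and 7 of 10, and in 35.2% of all genes. Both strands were searched, and each CACGTG also counts as ACGTG. The promoters of the higher genes had a median GC content of 65.0%, against 57.3% for lower genes, 56.5% for genes not called and 52.7% for all promoters, and its part in these shares was not tested. A match is a run of letters and does not show a bound site.

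Isoform choice was tested on the difference between 2 genes of a family on the same array, which compares their changes and not their levels. All 14 pairs within 8 families were tested with an exact two-sided permutation test that exchanged anti-CD3 and PBS labels within each IFN-4a state, with the mean of a gene's probe sets. It has 400 arrangements and a smallest possible p of 0.005. The change with anti-CD3 differed in 11 of the 14 pairs, and p-values were adjusted over the 14. Hk2 changed more than Hk1 by 2.65 (Hk1 minus Hk2 -2.65) and more than Hk3 by 2.48. Pfkfb3 exceeded Pfkfb4 by 1.54, Slc16a1 exceeded Slc16a3 by 1.20, Ldha exceeded Ldhb by 0.91 and Slc2a1 exceeded Slc2a3 by 0.76. Pfkl minus Pfkp was -0.41 and Pfkm minus Pfkp -0.59, so that the Pfkp change was the higher of each pair. Pdk1 minus Pdk3 was -0.86 and Pdk2 minus Pdk3 -1.10. Each of these 10 pairs had p = 0.005, the smallest the test can give, and adjusted p = 0.00700 in the exact permutation test. Pdk1 minus Pdk2 was 0.24 (exact permutation, adjusted p = 0.0318); with the probe set of largest spread per gene in place of the mean it was 0.0049 (exact permutation, adjusted p = 0.960). It also lost its call without the first anti-CD3, the first PBS or the third PBS array. Hk1 minus Hk3 was -0.17 (adjusted p = 0.0583), Pfkl minus Pfkm 0.18 (adjusted p = 0.195) and Eno2 minus Eno3 0.16 (adjusted p = 0.124), none past the threshold in the exact permutation test. Hk3, Pfkm, Pfkfb3, Pfkfb4, Eno2, Ldhb, Slc16a3 and Pdk2 were not among the probe sets without a reading under 8 before centring. Nor were Slc2a1 probe set 17429307 and Pdk1 probe set 17548205. The part of low readings in these differences was not tested.

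**Figure D3:**
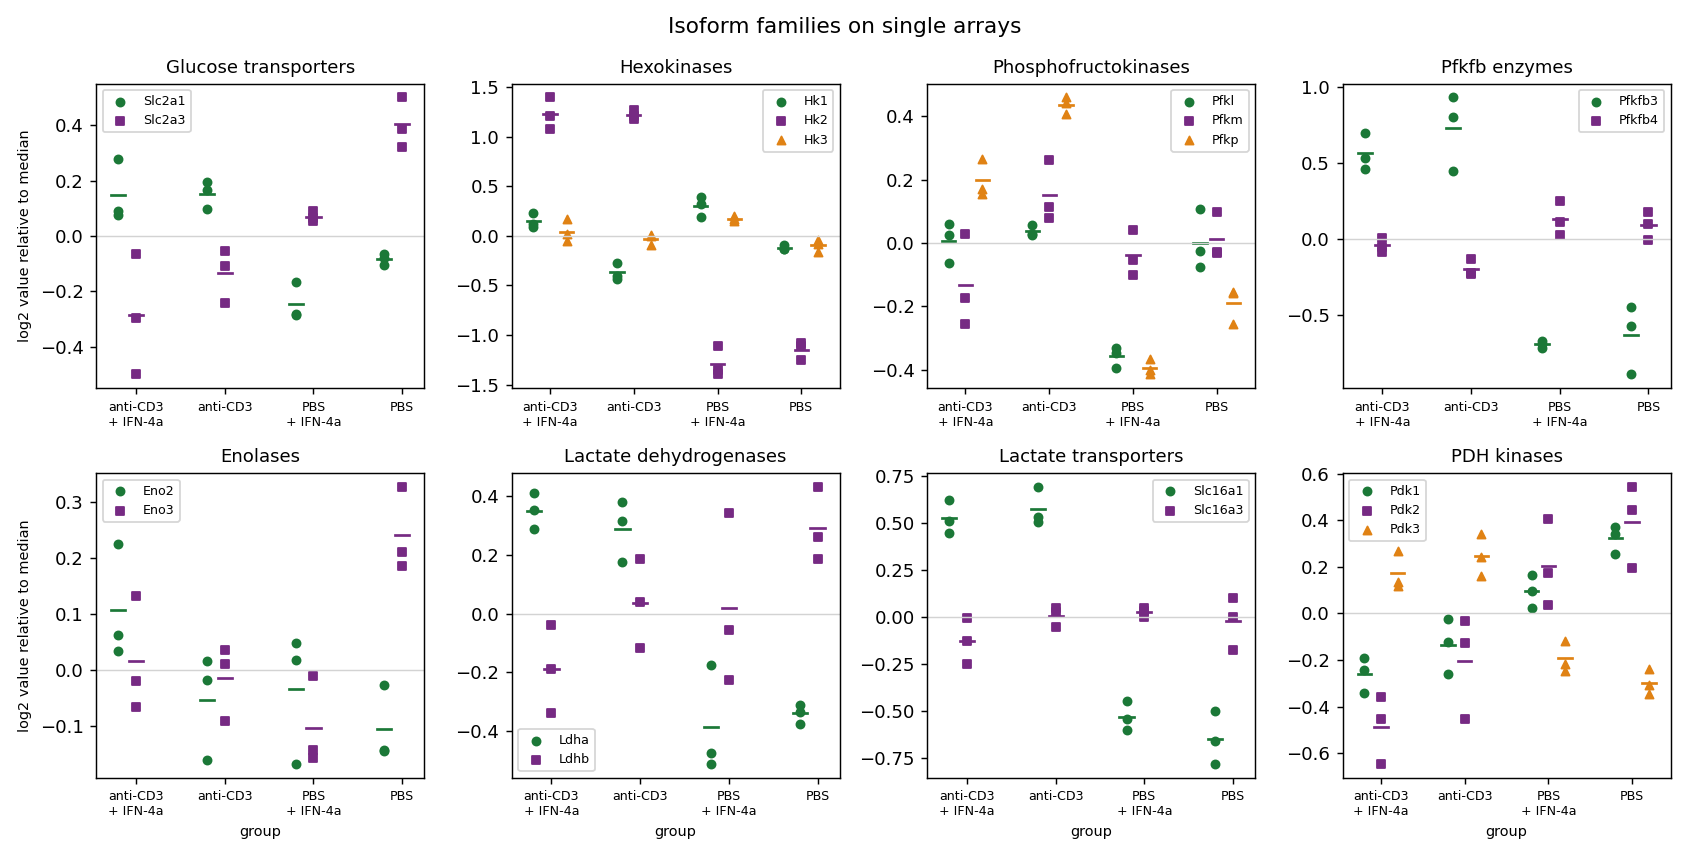
Each panel is a family, with a point per array for each gene (mean of its probe sets for Slc2a1 and Pdk1), a short bar for the group mean, the group on the horizontal axis and the log2 value relative to the median on the vertical axis, whose range differs between panels. Hk2, Pfkfb3, Slc16a1, Ldha and Pdk3 are high in both anti-CD3 groups, and Slc2a3, Pdk1 and Pdk2 are low there.

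IFN-4a without stimulation shifted hexokinase, lower glycolytic and pentose phosphate genes, in both directions. Of 38 probe sets 12 were called in PBS with IFN-4a against PBS alone, 4 higher and 8 lower, 31.6% against 12.2% of all probe sets (4.17% higher and 8.08% lower). Arrays did not overlap for 20 members, beside 30.4% of all. No change reached 2-fold, and the median was -0.081 against -0.011 for all probe sets. The 4 higher genes included 2 hexokinase genes, and the 8 lower ones included 6 genes of the steps after hexokinase. Hk1 stood at 0.19, 0.33 and 0.39 with IFN-4a, against -0.13, -0.093 and -0.13 with PBS alone, and rose 1.34-fold (0.42 ± 0.066, adjusted p = 9.00e-04). Hk3 rose 1.21-fold (0.27 ± 0.063, adjusted p = 0.0132), while Hk2 changed by -0.14 (not called). Pfkl fell 1.28-fold (-0.36 ± 0.059, adjusted p = 0.00125) and Eno3 1.27-fold (-0.34 ± 0.069, adjusted p = 0.00549); neither overlapped between the groups. Tpi1 at -0.29, Pgk1 at -0.24, Pkm at -0.21 and Pfkp at -0.21 were also lower, as was the transporter gene Slc2a3 at -0.33. The pentose phosphate genes divided, with Rpia at -0.44 (adjusted p = 0.0125) and with Pgd at 0.22 (adjusted p = 0.0212) and Taldo1 at 0.27 (adjusted p = 0.0329). Only the calls of Hk1, Pfkl and Eno3 held in all alternatives run. The count was 4 without the first PBS with IFN-4a or the third PBS array, 6 without the second array of either group, and 6 under quantile normalization, with 3 higher and 3 lower.

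In stimulated cells IFN-4a changed 3 of the 38 probe sets, 2 higher and 1 lower, 7.89% against 3.32% of all probe sets (1.97% higher and 1.36% lower), and the same 3 were called in the same direction in PBS-treated cells. These 2 comparisons share no arrays. Hk1 stood at 0.093, 0.12 and 0.23 with anti-CD3 and IFN-4a, against -0.41, -0.43 and -0.27 with anti-CD3, and rose 1.43-fold (0.52 ± 0.066, adjusted p = 3.07e-04). Pgd, at 0.54, 0.52 and 0.37 with anti-CD3 and IFN-4a against 0.16, 0.20 and 0.22 with anti-CD3, rose 1.22-fold (0.28 ± 0.057, adjusted p = 0.0135). Pfkp, at 0.17, 0.27 and 0.15 with anti-CD3 and IFN-4a against 0.41, 0.44 and 0.46 with anti-CD3, fell 1.18-fold (-0.24 ± 0.053, adjusted p = 0.0253). No array of one group overlapped the other for these 3 genes and 5 further probe sets. These 8 of 38 were about the same share as the 21.1% of all probe sets, so lack of overlap does not set the members apart here. The 5 further probe sets, among them Pgam1 17359466 at -0.36 (adjusted p = 0.0743) and Pfkm at -0.29 (adjusted p = 0.0743), were not called. Hk2 changed by 0.0095 and Slc16a1 by -0.050, with 95% intervals from -0.18 to 0.20 and from -0.22 to 0.12. Only the Hk1 call held in all alternatives. The count was 1 with only the 2 groups in the fit and without array 1 of anti-CD3 with IFN-4a or array 2 of anti-CD3, and quantile normalization gave 2, both higher; Pgd reached adjusted p = 0.0708 and Pfkp 0.110. The exact permutation test of isoform pairs for IFN-4a, exchanging labels within each stimulation state, called none of 14 pairs after adjustment, with 6 at an unadjusted p under 0.05; leaving out array 1 of anti-CD3 gave 5, array 2 of anti-CD3 with IFN-4a 3, and array 1 or 3 of PBS with IFN-4a 2 each. Hk1 minus Hk2 was 0.53 (exact permutation p = 0.005, adjusted p = 0.0700). That p is the smallest the test can give, so a larger difference could not have lowered it. Its adjusted value then depends on how many other pairs are low, and the missing call does not show equal changes. With the replicate number as a block 6 pairs were called, Hk1 minus Hk2 among them (exact permutation, adjusted p = 0.0233).

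**Figure D4:**
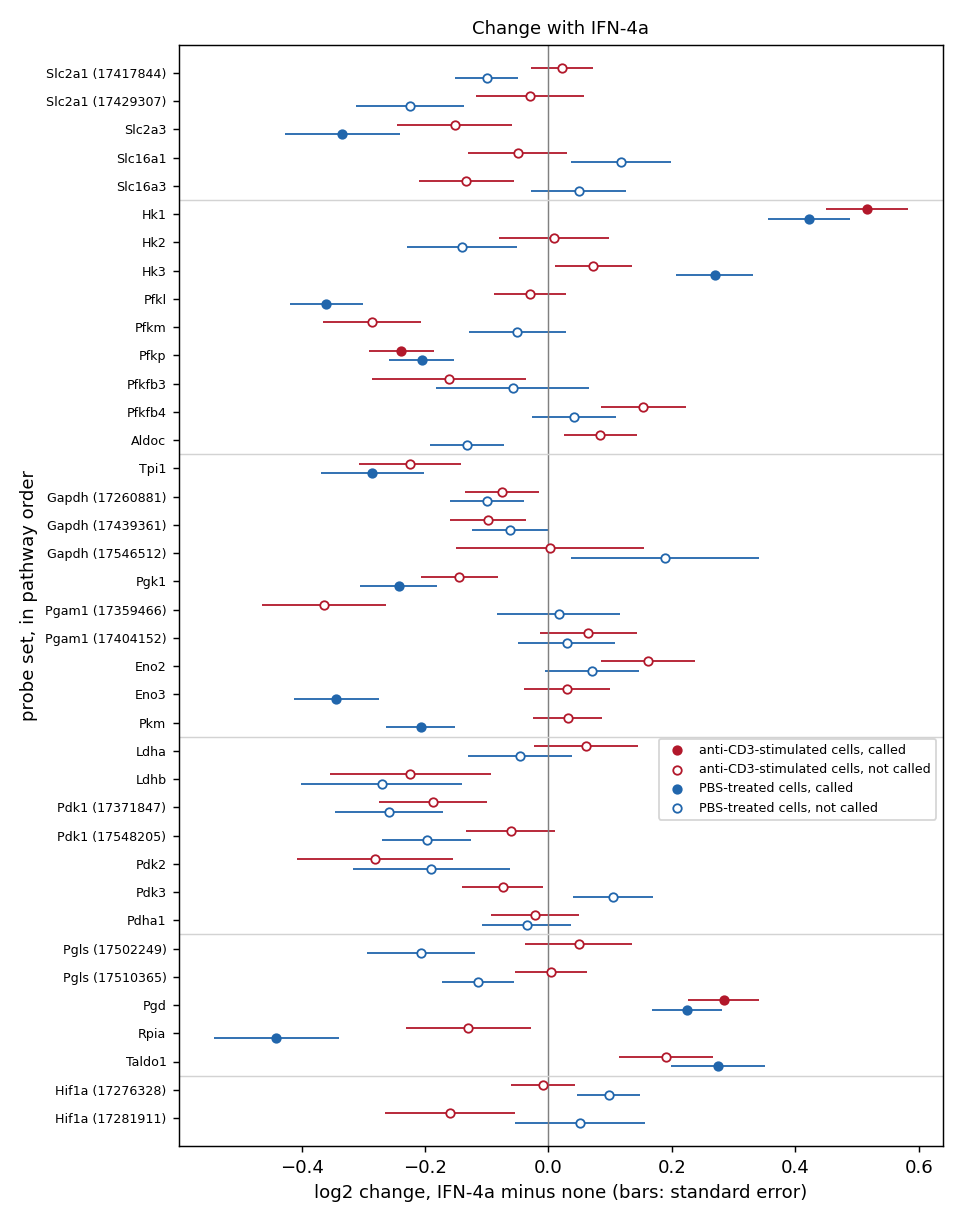
Points give the log2 change with IFN-4a for each probe set in anti-CD3-stimulated cells (red) and PBS-treated cells (blue), with bars for the standard error and filled points for adjusted p under 0.05. Hk1 is the rightmost in both states, at 0.52 and 0.42, and Pfkp is called lower in both.

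Whether stimulation altered the response to IFN-4a was tested as an interaction, taking the IFN-4a change under anti-CD3 less the IFN-4a change under PBS. In limma no member was called, against 0.855% of all probe sets, and none was in any alternative run. At an unadjusted p under 0.05 there were 7 of 38 members, beside 10.8% of all probe sets. Pfkl had the lowest adjusted p, with an interaction of 0.33 ± 0.083 (adjusted p = 0.104). Its IFN-4a change was -0.030 in stimulated cells and -0.36 in PBS-treated cells. For Eno3 the interaction was 0.37 ± 0.098 (adjusted p = 0.123), from 0.030 and -0.34. Rpia had 0.31 ± 0.14 (adjusted p = 0.462), and Pgam1 probe set 17359466 had -0.38 ± 0.14 (adjusted p = 0.330). The half-width of the 95% interval of an interaction was 0.15 to 0.46 over the members. These widths are not adjusted for the number of tests, and the 7 members with an unadjusted p under 0.05 lay beyond theirs without being called. Pfkl, Eno3, Rpia and Pgam1 probe set 17359466 are among these 7.

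Other genes of the pathway came from a list of 39, of which 34 had a probe set of their own. Without IFN-4a, 16 of 35 probe sets were called with anti-CD3, 12 higher and 4 lower, beside 31.4% of all probe sets (13.9% higher and 17.5% lower). With IFN-4a 13 were called, 11 higher and 2 lower, beside 27.3% of all (12.8% and 14.5%). Their median change was 0.040 without and 0.038 with IFN-4a, and the genes named here all passed the test. The largest increases without IFN-4a were Prps1 at 0.65, which makes phosphoribosyl pyrophosphate from ribose 5-phosphate, G6pc3 at 0.64, a glucose 6-phosphatase gene, and Adpgk at 0.56, the ADP-dependent glucokinase gene. With IFN-4a, G6pc3 stood at 0.79, Adpgk at 0.74 and Bsg at 0.48, the gene of basigin, the chaperone of MCT1. The largest decreases without IFN-4a were Pck2 at -0.57, the mitochondrial phosphoenolpyruvate carboxykinase gene, Shpk at -0.40 and H6pd at -0.36. With IFN-4a the 2 lower genes were Pck2 at -0.49 and Bpgm at -0.35. IFN-4a in PBS-treated cells raised 3 and lowered 5 of the 35, beside 4.17% and 8.08% of all, among them H6pd at -0.40, G6pc3 at -0.36 and Pgm2 at -0.33. In stimulated cells none was called by limma, beside 3.32% of all. There 6 had an unadjusted p under 0.05 in limma, but the share of all probe sets at that threshold was not counted, so the 6 cannot be read against it.

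Of 24 probe sets for 23 regulator genes, 16 were called with anti-CD3 without IFN-4a, 6 higher and 10 lower, beside 31.4% of all probe sets (13.9% higher and 17.5% lower). With IFN-4a 12 were called, 3 higher and 9 lower, beside 27.3% of all (12.8% and 14.5%). Their median change was -0.062 and -0.063. Irf4, a transcription factor gene induced by T cell receptor signals, stood at 3.44 and 2.98, Myc at 2.75 and 2.61, and Bhlhe40 at 1.15 and 1.02. Txnip, which encodes an inhibitor of glucose uptake, fell by 0.995 without IFN-4a and by 0.90 with it. Klf2, a quiescence factor gene, fell by 0.81 and by 0.62, and a probe set of Mxi1, a Myc antagonist gene, fell by 0.63 without IFN-4a. Arnt, the partner gene of Hif1a in HIF-1, fell by 0.61 with IFN-4a present. IFN-4a in PBS-treated cells raised 3 and lowered 5 of the 24, beside 4.17% and 8.08% of all, with Max, the Myc partner gene, at 0.44, and in stimulated cells it raised Max alone, by 0.25, beside 3.32% of all called.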

How the data were processed

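The authors deposited 1 table of log2 values for 12 arrays; the base is an assumption, and in a natural log every fold printed would be larger. Per the labels' protocols, total RNA was extracted with an RNeasy kit and biotin-labelled with a WT Plus kit; probe summarization and normalization between arrays: not given in the sources used here. Each row of the deposited table has a median of 0 over the arrays (largest absolute row median 5e-07), so levels were removed. Arrays give no count depth, and their number limits the precision.

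Probe sets were named from the platform annotation: 23521 had 1 symbol, 1814 several and 8458 none. Each probe set was tested separately, because centred values give no ground to prefer one of a gene's probe sets. limma 3.58.1 in R 4.3.3 fitted a mean per group over all 12 arrays (8 residual and 4.95 prior degrees of freedom), with Benjamini-Hochberg adjustment over 23521 probe sets in each of 5 comparisons. The script recovered known shifts when tested on simulated data. Isoform pairs used an exact permutation test. Comparisons of anti-CD3 and of IFN-4a share groups with each other and are not independent. Array-by-array values were planned for the 4 largest changes per comparison and all isoforms, and other genes for at most the 3 largest called changes per direction and list. The members and lists were chosen with earlier results of these data known. Alternatives were quantile normalization, median centring, array weights, a robust prior, only the 2 groups compared, all rows, gene means, the row of largest spread, the replicate number as a block, and each array left out.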

Additional observations from a re-analysis of the deposited data

How the results depend on the processing

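Member changes were recomputed in up to 20 other settings and isoform pairs in 16. Of 60 called member changes 44 kept direction and call in each setting run for them. The 16 that did not were 3 with anti-CD3 without IFN-4a, 2 with it, 9 with IFN-4a in PBS-treated cells and 2 with IFN-4a in stimulated cells. With 1 mean per gene, Pgam1 probe set 17359466, lower with anti-CD3 and IFN-4a, gave way to a gene mean of 0.42, and Slc2a1 probe set 17429307, not called without IFN-4a, to one of 0.24, since each mean holds a second probe set that rose; no other called value turned its direction. Leaving out single arrays gave 21 to 24 called members with anti-CD3 without IFN-4a, 20 to 22 with it, 4 to 13 for IFN-4a in PBS-treated cells, 1 to 4 for IFN-4a in stimulated cells and 0 for the interaction. It gave 10 to 12 isoform pairs for anti-CD3 and 0 to 5 for IFN-4a. For IFN-4a in PBS-treated cells, quantile normalization gave 6, with 3 higher and 3 lower. For IFN-4a in stimulated cells, only the 2 groups compared gave 1. The causes of these count changes were not tested.

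Groups share replicate numbers. Deviations of same-numbered arrays correlated between -0.079 and 0.27 (median 0.074), above 0 in 15 of 18 pairs and above 0.1 in 8, and those of other-numbered arrays had a median of -0.051. In 9 of 12 arrays the best match had the same number. Since not every pair exceeded 0.1 and the labels name no shared source, the numbers were not taken as a pairing. With the replicate number as a block, 5 members were called for IFN-4a in stimulated cells, 6 isoform pairs for IFN-4a and 13 for anti-CD3. Ldhb then passed with anti-CD3 without IFN-4a (adjusted p = 0.0287) and Hif1a probe set 17276328 did not (adjusted p = 0.0539). With 3 arrays a group and centred values, small changes may be missed, and signal over background is unknown.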
